A study of Homo sapiens with 6 samples.

Results

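The genes described here are the protein-coding genes of DNA replication and DNA repair that were listed in an RNA-seq table of HT-29 cells with and without OGT depletion. They were chosen by name alone, from gene families that load and fire replication origins, copy DNA, supply its nucleotides, switch on S-phase transcription, and repair or monitor DNA damage. The name rule matched 143 protein-coding genes of the GENCODE release 29 annotation. The table, with 5681 genes of which 4129 are protein coding, held 40 of them, and 103 were not in it. No measured value entered the rule, but the table itself was restricted on the comparison made here. It holds genes that differed between the groups by more than 2-fold with an adjusted p under 0.05, so that every member had to differ in order to be listed.

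HT-29 is an established human colorectal cancer cell line of epithelial origin. OGT (O-GlcNAc transferase) is the enzyme that attaches single N-acetylglucosamine sugars to serines and threonines of nuclear and cytoplasmic proteins. The control group, Scramble (genotype WT in the labels, n = 3 libraries, numbered 1 to 3), carried a hairpin RNA with no intended target. The depleted group, shOGT (OGT knock down in the labels, n = 3 libraries, numbered 4 to 6), carried a hairpin RNA against OGT. All 6 libraries came from the same line, with the hairpin delivered by lentivirus and stable cells selected, and the labels name no batch. The sources used here do not name which hairpin against OGT was used for RNA-seq, so differences between the groups may belong to that hairpin, to the selected cell population or to OGT. Nothing in the labels says that the libraries of a group came from separate cultures. The p-values given therefore measure the spread between these libraries, which may be technical.

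To copy its genome, a cell first loads the MCM helicase onto origins marked by ORC, then activates it with GINS and MCM10, and copies both strands with DNA polymerases held to the template by the sliding clamp PCNA. E2F transcription factors, held in check by the RB family until late G1, switch on many of these genes together at the start of S phase. Damage is handled by separate routes: homologous recombination (BRCA1, RAD54L), the Fanconi anaemia pathway for interstrand crosslinks, mismatch repair, nucleotide excision repair, and end joining by XRCC6 and LIG4, while the RAD18 ligase and the polymerase POLH let replication pass damaged bases. In epithelial tumour lines most of the replication genes are read out mainly in dividing cells, whereas several repair genes are read out throughout the cell cycle.

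The values are normalized counts, that is, reads per gene divided by a size factor for each library and not by gene length. The listed genes together drew 4145921 to 4504303 reads per library in Scramble and 3302558 to 3471647 in shOGT. The full depth of the libraries, which includes unlisted genes, is unknown. OGT itself, on chromosome X at 71533083 to 71575897 (GRCh38), stood at 9628, 11638 and 11619 normalized counts in Scramble and at 484, 621 and 537 in shOGT. The shOGT libraries retained 4.99% of the Scramble mean, and the groups lay far apart. By an exact two-sided permutation test p was 0.1, which 6 values in groups of 3 cannot go below. Of 13 epithelial markers of the colon line, 5 were in the table, all with reads in every library. Of these, KRT20, KRT19 and CDH17 rose in shOGT by 2.69, 1.39 and 1.34 on the log2 scale, CDH17 on 9 to 29 reads per library. LGALS4 and VIL1 fell by 1.97 and 1.12. Of 8 markers of mesenchymal and blood cells 1 was listed, PECAM1, with a mean of 47.5 normalized counts in Scramble and 168 in shOGT. Whether a shift in cell state plays a part in the results below was not tested.

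Most of the replication and repair genes in the table were lower after OGT depletion. Of the 40 members, 34 fell and 6 rose in shOGT (limma, adjusted p under 0.05 and over 2-fold). The 6 that rose were RPA4, LIG4, POLN, ERCC4, POLH and RAD18. Among lower genes alone the median log2 fold change was -1.58 for the members and -1.53 for the protein-coding genes tested. The members that fell thus did so by about as much as other listed genes that fell. The median log2 fold change of all members was -1.37, against -1.11 for the protein-coding genes tested. Over all genes tested it was 1.05, but this value changed sign with the genes and libraries used (-1.05 over genes averaging at least 10 normalized counts, then -0.96, -0.93 and -0.90 without shOGT library 4, 5 and 6). All 40 members were called, but so were 99.4% of the 5671 genes tested in the whole table, which follows from how it was restricted, so this count says nothing about the members. What the restriction leaves free is the direction. Across all genes 47.2% were called lower and 52.2% higher, and across the protein-coding genes 57.1% were called lower and 42.3% higher, whereas 85.0% of the members were lower. The Scramble and shOGT libraries did not overlap for any of the 40 members, as was the case for 99.5% of all genes tested. In bulk RNA, fewer cells in S phase and less of these transcripts per cell cannot be told apart.

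**Figure D1:**
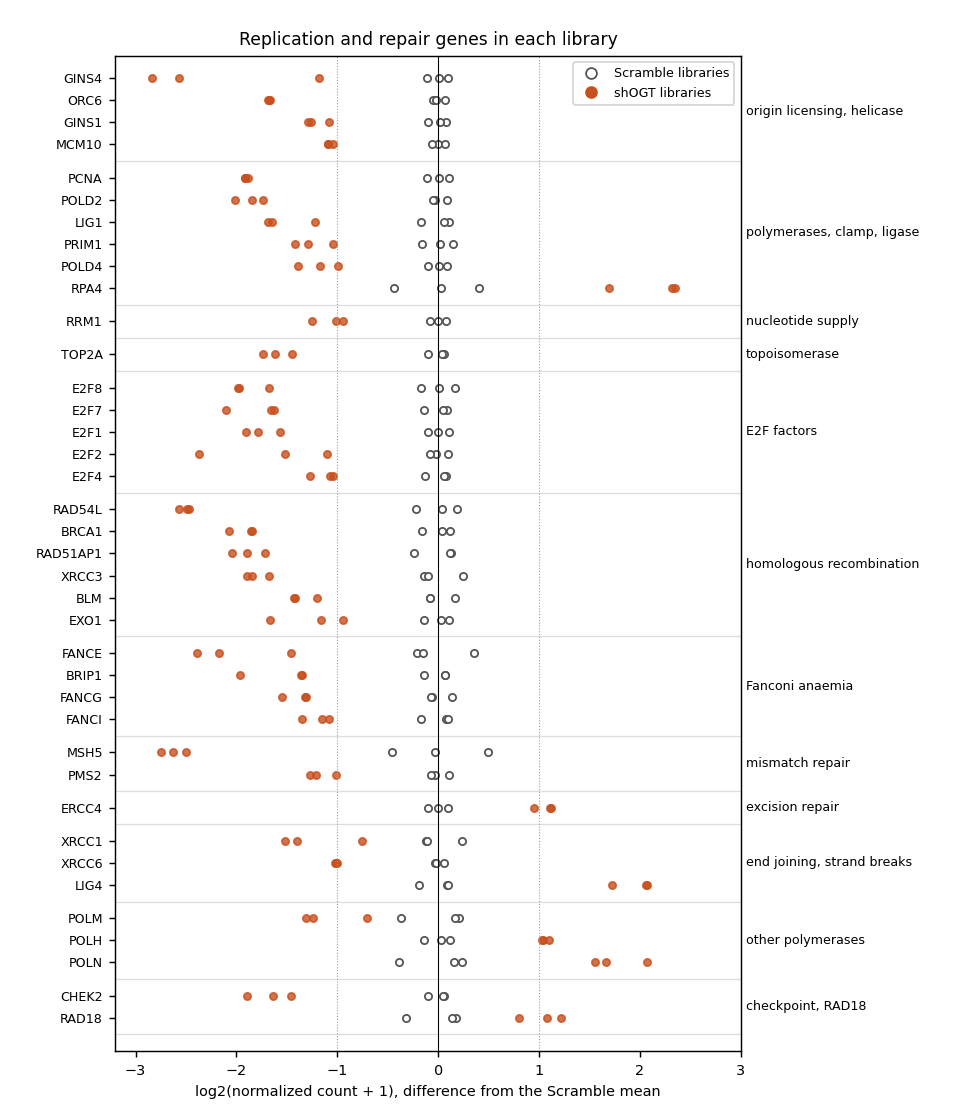
Each row is 1 of 38 replication or repair genes and each point a library, placed by the difference of its log2(normalized count + 1) from the Scramble mean (open points, 3 Scramble libraries; filled points, 3 shOGT libraries; dotted lines, a 2-fold difference). The filled points lie left of the open points in 32 rows and right of them in 6 rows, and no row has overlapping groups.

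These counts depend in part on how the libraries are set on a common scale. Rescaling the libraries by their median ratio across the listed genes moved all fold changes upward, by a median of 0.71 on the log2 scale. A median ratio takes most genes as unchanged, whereas every listed gene differed between the groups. The rescaled values therefore show how far the counts move with the scale, and are not a better estimate than the deposited ones. The split of calls over all genes then changed from 2959 higher and 2677 lower to 2980 higher and 1090 lower. Relative to that scale, all 34 lower members kept a log2 fold change below 0, and 13 of them stayed past 2-fold while 21 did not. The share was similar over all genes tested, where 1090 of 2691 lower genes were called after rescaling. Over the protein-coding genes tested it was 934 of 2367, so the count says little about the members. The 6 higher members all stayed past 2-fold, as did all 2980 higher genes tested, because the shift was upward. The median of the members became -0.66. Those that stayed past 2-fold included E2F8, E2F7, E2F1, FANCE, RAD54L, BRCA1, RAD51AP1, XRCC3, MSH5, GINS4, PCNA and POLD2. The direction of each member was the same on both scales, while the size of the decrease was not. Directions could hardly change, because the listed genes lay past 2-fold and the shift was smaller than that. All 2691 lower and 2980 higher genes tested kept theirs as well, so keeping it says nothing about the members. All fold changes below are on the scale of the deposited values, on log2(normalized count + 1), unless the rescaled value is named.

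**Figure D2:**
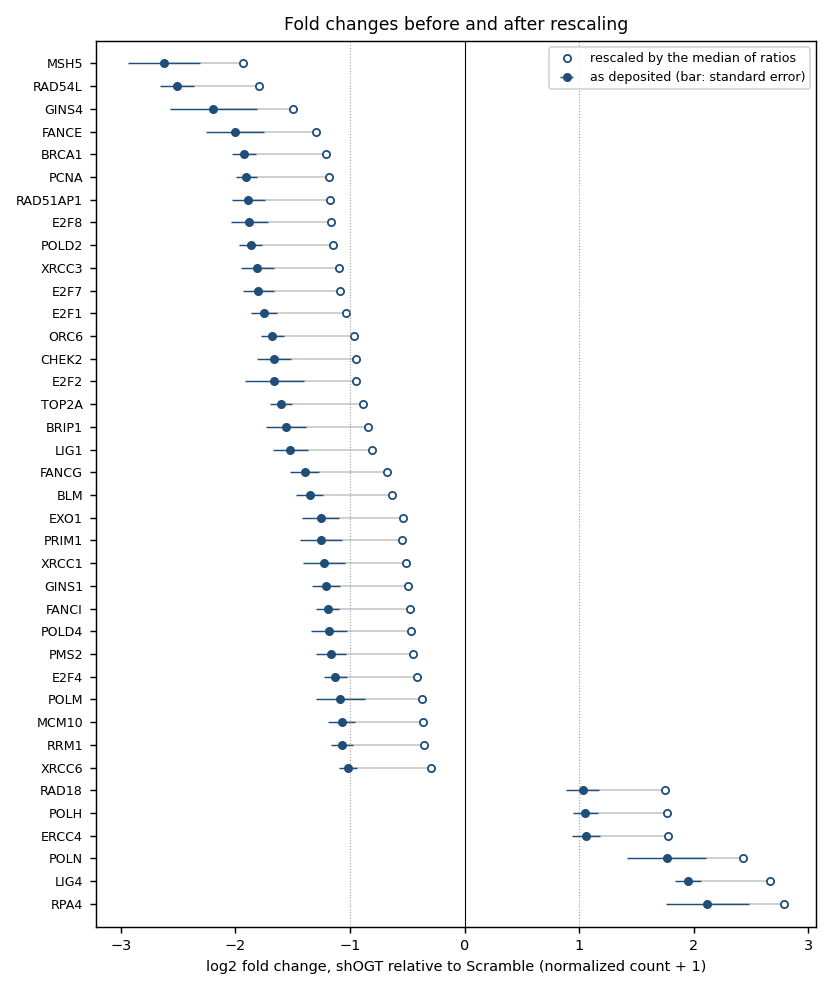
Log2 fold change (shOGT relative to Scramble, with its standard error) of 38 members on the deposited scale (filled) and after rescaling by the median ratio across the listed genes (open). Rescaling moved every member drawn to the right by between 0.67 and 0.72. No member crossed 0, which a shift of this size could hardly bring about for genes listed past 2-fold.

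Among the genes of origin licensing and helicase activation, 4 of the 20 names in the annotation were in the table, and all 4 fell. ORC6, the smallest subunit of the origin recognition complex (chromosome 16, 46689643 to 46698394), stood at 779, 843 and 795 normalized counts in Scramble and at 253, 251 and 249 in shOGT. The shOGT libraries were nearly equal and all far below the Scramble libraries, with 31.1% of the control level retained (log2 fold change -1.68 ± 0.10 SE, adjusted p = 2.12e-09, limma). GINS4, a subunit of the GINS complex that completes the active helicase, was at 87.8, 93.7 and 81.0 in Scramble and at 37.9, 13.9 and 11.4 in shOGT. Library 4 stood well above the other 2 depleted libraries, and the log2 fold change of -2.19 became -2.70 without it and -1.87 without library 6. Exons of opposite-strand genes cover 23.6% of the GINS4 exon bases. MCM10, which helps to fire the loaded helicase, went from 416, 399 and 437 to 202, 195 and 196, just past the 2-fold limit of the table (-1.07 ± 0.12). GINS1, another GINS subunit, retained 43.2%. The MCM2 to MCM7 genes of the helicase core, CDT1 and ORC1 to ORC5 were not listed and were not analysed here.

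At the fork itself, 6 of 24 names were in the table. PCNA, the sliding clamp (chromosome 20, 5114953 to 5126626), stood at 2135, 2483 and 2332 normalized counts in Scramble and at 614, 613 and 625 in shOGT. The 3 depleted libraries were within a few percent of each other, and PCNA retained 26.6% of the control level (-1.90 ± 0.09, adjusted p = 2.12e-10, limma). POLD2, the second subunit of the lagging-strand polymerase delta (chromosome 7, 44114681 to 44124358), moved alike, from 1939.7, 1784 and 1758 to 506, 546 and 449.6 (27.4% retained). Its small partner POLD4 retained 44.0%, but 40.9% of the 75-base stretches of POLD4 also occur in other annotated genes, so its reads may be shared. PRIM1, the catalytic subunit of the primase, retained 41.7%, with 21.8% of its 75-base stretches shared. LIG1, the ligase that seals Okazaki fragments (chromosome 19, 48115445 to 48170603), went from 482, 397 and 465 to 191, 141 and 138 (-1.52 ± 0.15, adjusted p = 2.67e-07, limma).

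The exception among the fork genes was RPA4, a paralogue of the single-strand binding subunit RPA2. It was at 7.10, 13.5 and 10.1 normalized counts in Scramble and at 53.7, 34.3 and 54.6 in shOGT, a 4.64-fold higher mean. All depleted libraries were above all controls, but the fewest reads behind a value were 8, and the gene is a short, low-level one. RPA1, RPA2 and RPA3, the subunits of the main complex, were not in the table.

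Nucleotide supply and strand untangling each had 1 member in the table. RRM1, the large subunit of ribonucleotide reductase (chromosome 11, 4094707 to 4138876), stood at 2613, 2926 and 2762 in Scramble and at 1159, 1369 and 1433 in shOGT. No library overlapped, yet the fall (-1.07 ± 0.10) lay close to the 2-fold limit and was -0.98 without shOGT library 4. TOP2A, the topoisomerase that decatenates sister chromatids and is made mainly by dividing cells (chromosome 17, 40388516 to 40417950), was at 6180, 6929.6 and 6824 in Scramble and at 2163, 2429 and 1986 in shOGT. It retained 33.0% (-1.60 ± 0.09, adjusted p = 1.23e-09, limma), and was one of the most abundant members in both groups. RRM2 and TYMS were not in the table.

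**Figure D3:**
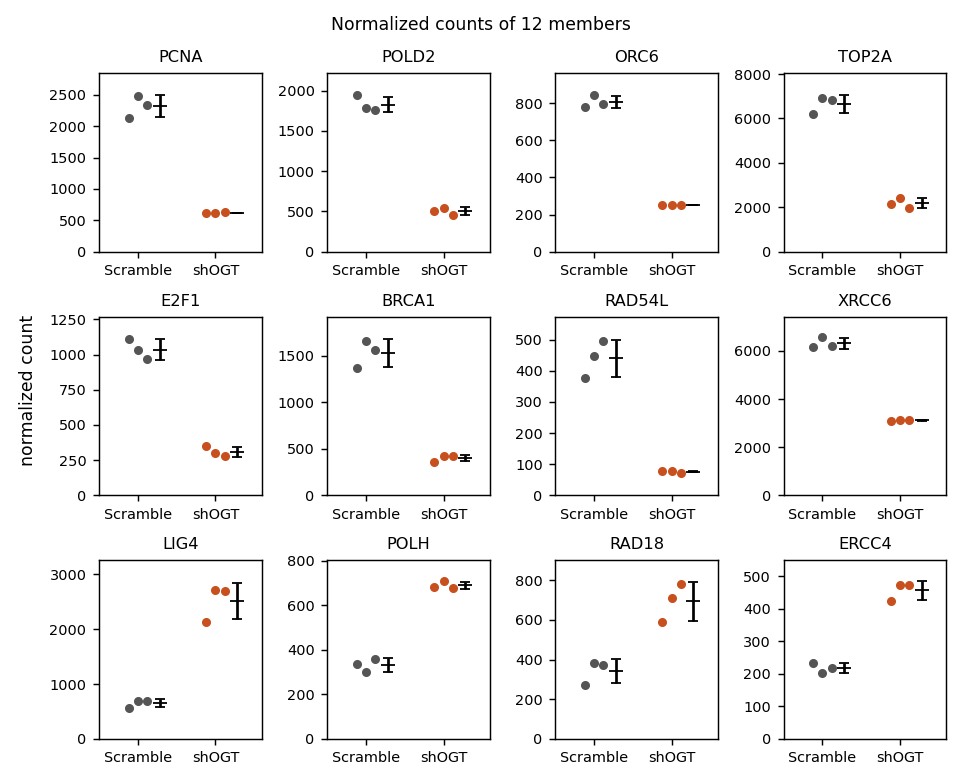
Normalized counts of 12 members in the 6 libraries (points) with the mean and SD of each group (n = 3 libraries, bars; vertical axes start at 0). PCNA, POLD2, ORC6, TOP2A, E2F1, BRCA1, RAD54L and XRCC6 were lower in every shOGT library, and LIG4, POLH, RAD18 and ERCC4 were higher in every shOGT library.

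The E2F factors fell as a group, with 5 of the 8 family names in the table and all 5 lower. E2F1, an activator that drives entry into S phase (chromosome 20, 33675683 to 33686404), stood at 1111, 1031 and 965 normalized counts in Scramble and at 348, 299 and 275 in shOGT. The mean fell from 1036 ± 73.1 to 308 ± 37.2 (SD, n = 3), 29.7% of control (-1.75 ± 0.11, adjusted p = 3.71e-09, limma). E2F2, another activator, went from 219, 238 and 209 to 76.8, 103 and 42.1. Its depleted libraries were spread widely, so that the log2 fold change of -1.66 ranged from -1.94 to -1.31 when single libraries were left out.

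E2F8 and E2F7, the atypical members that repress E2F targets later in S phase and are themselves E2F targets, had the lowest log2 fold changes of the family (-1.88 ± 0.16 for E2F8 and -1.80 ± 0.14 for E2F7), though E2F1 lay within their errors. E2F8 (chromosome 11, 19224063 to 19241620) was at 284, 321 and 358 in Scramble and at 80.0, 80.3 and 99.0 in shOGT (26.9% retained). E2F7 (chromosome 12, 77021247 to 77065580) went from 763, 893 and 866 to 194, 269.9 and 265 (28.9% retained). Activating and repressing E2F factors were thus both low in every depleted library. E2F4, a mostly repressive factor of resting cells, fell least of the family, from 1604, 1584 and 1385 to 736, 629.8 and 725 (-1.13 ± 0.10), and its rescaled log2 fold change was -0.41. E2F3, E2F5 and E2F6 were not in the table.

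Transcripts of proteins that bind these factors were lower as well. Of 6 listed genes for E2F dimer partners and RB family proteins, 3 were in the table and all 3 fell. RB1, the founding pocket protein that binds and silences activator E2Fs, stood at 2778, 3165 and 3092 normalized counts in Scramble and at 564, 636 and 667 in shOGT (-2.27). RBL1 went from 500.2, 606 and 667 to 142, 222 and 203 (-1.66), and TFDP2, a dimer partner, fell by 1.32 on the log2 scale. Transcript levels give no view of the phosphorylation that decides RB activity.

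Because many replication genes carry E2F sites and CCAAT boxes close to their starts, the promoters of the members were read from RefSeq (GRCh38.p14, 250 bases before to 50 after the start). A promoter was held for 34 of the 40 members, and was missing, among others, for FANCI, RPA4, GINS4 and E2F8. The stretches below all lie upstream of the start and are written 5′ to 3′ on the strand of the gene. The genes were chosen after their values were seen. They are 5 genes that fell and hold the motifs in different arrangements, a strongly fallen recombination gene, and LIG4, which rose. BRCA1, FANCE, FANCG and E2F4 also fell but hold neither motif in their promoters, and are not printed. Capitals mark an E2F site (TTTCCCGC, TTTCGCGC, TTTGCCGC or TTTGGCGC) or a CCAAT box (CCAAT), each on either strand, so that a site on the other strand appears as its reverse complement. The motifs in these stretches do not overlap each other. E2F1 (chr20:33686386-33686635, minus strand) holds 2 E2F sites and 3 CCAAT boxes, and E2F7 (chr12:77065570-77065819, minus) 4 CCAAT boxes. PCNA (chr20:5126623-5126732, minus) holds 1 E2F site and 2 CCAAT boxes in the stretch shown. LIG1 (chr19:48170345-48170494, minus) and E2F2 (chr1:23531234-23531313, minus) hold 1 E2F site each. RAD54L (chr1:46247538-46247687, plus) holds 1 CCAAT box in the stretch shown, and a further box spans its start. LIG4 (chr13:108218350-108218449, minus) holds none.
E2F1: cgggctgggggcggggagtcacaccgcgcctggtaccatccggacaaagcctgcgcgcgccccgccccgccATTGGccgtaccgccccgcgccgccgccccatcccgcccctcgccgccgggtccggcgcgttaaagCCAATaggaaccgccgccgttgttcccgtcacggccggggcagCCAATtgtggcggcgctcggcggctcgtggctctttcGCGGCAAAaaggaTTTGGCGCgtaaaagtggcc
E2F7: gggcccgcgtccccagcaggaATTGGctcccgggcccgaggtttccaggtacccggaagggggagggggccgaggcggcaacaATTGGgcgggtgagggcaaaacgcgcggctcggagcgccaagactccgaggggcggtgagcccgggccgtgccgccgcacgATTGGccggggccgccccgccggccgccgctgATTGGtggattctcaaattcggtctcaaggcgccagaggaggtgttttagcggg
PCNA: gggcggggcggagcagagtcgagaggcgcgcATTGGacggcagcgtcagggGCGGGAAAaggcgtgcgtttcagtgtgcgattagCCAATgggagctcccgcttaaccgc
LIG1: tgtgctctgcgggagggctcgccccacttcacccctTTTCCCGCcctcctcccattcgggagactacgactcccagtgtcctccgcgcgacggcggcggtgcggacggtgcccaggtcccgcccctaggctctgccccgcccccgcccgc
E2F2: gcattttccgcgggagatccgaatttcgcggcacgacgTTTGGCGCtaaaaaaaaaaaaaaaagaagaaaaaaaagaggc
RAD54L: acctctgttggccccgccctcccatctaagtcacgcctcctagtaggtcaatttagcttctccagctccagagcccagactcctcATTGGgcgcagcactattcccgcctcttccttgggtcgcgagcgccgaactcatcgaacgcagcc
LIG4: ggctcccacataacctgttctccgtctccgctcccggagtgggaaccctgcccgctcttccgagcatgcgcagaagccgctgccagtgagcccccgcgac

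An E2F site was found in 8 of the 34 member promoters (23.5%), namely E2F1, E2F2, EXO1, GINS1, LIG1, PCNA, PMS2 and XRCC6, against 4.44% of 15843 protein-coding promoters. All 8 belonged to the 29 members with a promoter that fell (27.6%), and none to the 5 that rose. Among the protein-coding genes of the table as a whole, 6.61% of the lower and 2.68% of the higher genes held such a site. CCAAT boxes showed the same split. They were present in 22 of the 29 lower members (75.9%) and in 0 of the 5 higher members, against 36.4% of all protein-coding promoters, 45.5% of the lower and 30.7% of the higher genes of the table. At least 2 CCAAT boxes were present in 16 of the 29 lower members (55.2%), against 12.5% of all promoters, 22% of the lower and 8.41% of the higher genes of the table. The E-box CACGTG, the core letters bound by MYC, was in 0 of the 34 windows against 8.88% of all promoters, and the cell-cycle element TTTGAA in 5 of 34 (14.7%) against 12.1%. These are matches of letters within a short window. They show neither binding nor a cause, and a missing match says nothing about the factor. With 5 higher members the contrast between risen and fallen members rests on very few promoters, and it was not tested. The median share of G and C in these promoters was 64% for the lower members and 72.3% for the higher members. For the protein-coding genes of the table it was 65.7% for lower and 64% for higher genes. Its part in the matches was not tested.

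**Figure D4:**
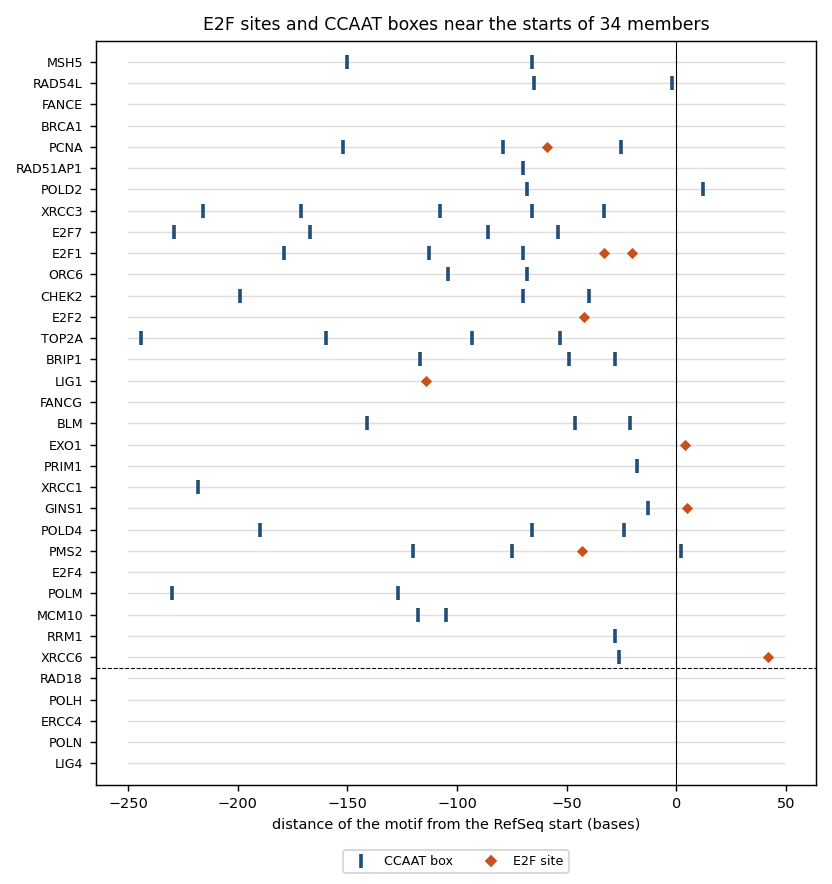
Positions of E2F sites (diamonds) and CCAAT boxes (bars) relative to the RefSeq start, in bases, in the promoters of 34 members ordered from the strongest decrease (top) to the strongest increase (bottom). The 5 members under the dashed line rose in shOGT and hold neither motif, while most of the 29 above it hold CCAAT boxes upstream of the start.

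All 6 genes of homologous recombination in the table, of 18 names, fell, with the largest median decrease (-1.85) of the role groups with more than 2 listed members. RAD54L, the motor protein that drives strand invasion (chromosome 1, 46247688 to 46278473), stood at 376, 448 and 496 normalized counts in Scramble and at 76.8, 78.2 and 72.8 in shOGT. The mean fell from 440.0 ± 60.4 to 76.0 ± 2.78 (SD, n = 3), 17.3% of control (-2.51 ± 0.15, adjusted p = 1.9e-09, limma). Exons of LRRC41 on the other strand cover 25.1% of its exon bases. BRCA1, which prepares broken ends for recombination (chromosome 17, 43044295 to 43170245), went from 1365, 1657 and 1563 to 360.0, 422 and 421 (26.2% retained, -1.93 ± 0.11, adjusted p = 8.63e-10, limma).

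RAD51AP1, a cofactor of strand exchange (chromosome 12, 4538798 to 4560048), was at 457, 588 and 583 in Scramble and at 144, 163 and 129.8 in shOGT. XRCC3, which also acts in strand exchange, went from 523, 399 and 410.4 to 137, 118 and 122. In both, every depleted library was far below every control, with 26.8% and 28.2% retained. For XRCC3, however, 76.7% of the exon bases lie over KLC1 exons on the other strand, and the sources used here do not say whether reads were counted by strand, so its reads cannot be told apart from those of KLC1. BLM, the helicase lost in Bloom syndrome, retained 39.1%, and EXO1, the nuclease that resects ends and also acts in mismatch repair, retained 42.5%. BRCA2 was not in the table.

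The 4 listed Fanconi anaemia genes, of 12 names, also fell. FANCE, a core complex subunit (chromosome 6, 35452356 to 35467103), was at 258, 174 and 181 normalized counts in Scramble and at 72.6, 43.9 and 37.6 in shOGT. Libraries 1 and 4 were the highest of their groups, and the log2 fold change of -2.01 ranged from -2.28 to -1.81 when single libraries were left out. BRIP1, the helicase partner of BRCA1, went from 318, 365 and 367 to 88.4, 135 and 137 (34.3% retained), and FANCG, also of the core complex, retained 37.9%. FANCI, a subunit of the clamp that is monoubiquitinated at crosslinks (chromosome 15, 89243949 to 89317261), was the most abundant of the group and fell least, from 2657, 3147 and 3192 to 1175, 1346 and 1409 (-1.19 ± 0.10).

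Mismatch repair had 3 of 9 names in the table, and all fell. MSH5, a meiotic MutS homologue (chromosome 6, 31739948 to 31762834), showed the lowest log2 fold change of all members. It was at 64.7, 87.4 and 127 normalized counts in Scramble and at 13.7, 15.0 and 12.5 in shOGT (14.8% retained, -2.62 ± 0.31). The Scramble libraries were spread widely but none came near the depleted ones. However, 88.5% of the 75-base stretches of MSH5 are shared with other genes, chiefly the readthrough gene MSH5-SAPCD1, which was not in the table, and the reads of these genes cannot be told apart.

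PMS2, the endonuclease subunit of the repair complex (chromosome 7, 5973239 to 6009125), went from 358, 397 and 349 to 152, 181 and 158, and 23% of its 75-base stretches also occur in annotated PMS2 copies. The MutS genes MSH3 and MSH6 were not in the table. Nucleotide excision repair had 2 of 11 names listed. ERCC4, the catalytic subunit of the nuclease that cuts 5′ of a lesion (chromosome 16, 13920157 to 13952345), rose from 234, 204 and 219 to 424, 475 and 472, a 2.09-fold higher mean (1.06 ± 0.12, adjusted p = 1.09e-06, limma). The opposite-strand gene AC010401.1 covers 25.7% of the ERCC4 exon bases but was listed at 0 in each Scramble library and at 1.05 to 8.57 normalized counts in shOGT.

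Among the genes that rejoin broken strands, LIG4 was the most changed, and it rose. LIG4, the ligase that completes non-homologous end joining (chromosome 13, 108207439 to 108218368), stood at 568, 685 and 693 normalized counts in Scramble and at 2128, 2722 and 2693 in shOGT. The lowest depleted library was well above the highest control, and the mean rose from 648 ± 70.1 to 2514 ± 335 (SD, n = 3), 3.88-fold (1.95 ± 0.11, adjusted p = 1.44e-09, limma; 2.67 after rescaling). XRCC6, the Ku70 subunit that binds the same broken ends first (chromosome 22, 41621119 to 41664048), moved the other way, from 6168, 6576 and 6215 to 3104, 3149 and 3127.

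XRCC6 was the member nearest to the limits of the table, at -1.01 ± 0.08, and it was -0.99 without Scramble library 2 and -0.30 after rescaling. Its retained level of 49.5% was tightly grouped in all 3 depleted libraries. XRCC1, the scaffold of single-strand break repair, went from 532, 416 and 418 to 267, 171 and 157 (43.6% retained). The end-joining genes XRCC4 and XRCC5 were not in the table.

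A ratio of genes within a library does not depend on any size factor. Ratios of normalized counts per kilobase were therefore formed for pairs of members chosen after their values were seen. LIG4 relative to LIG1, the end-joining and replication ligases, was 1.77, 2.58 and 2.24 in Scramble and 16.8, 28.9 and 29.3 in shOGT, an 11.4-fold change of the means. LIG4 relative to XRCC6 was 0.0690, 0.0781 and 0.0836 in Scramble and 0.514, 0.648 and 0.646 in shOGT, a 7.84-fold change. In both ratios the groups were separated by far more than their spread. The pairs were picked for their opposite directions, so the direction of these ratios is no separate result.

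Of the 9 other polymerases, 3 were in the table. POLH, the polymerase that copies past ultraviolet damage (chromosome 6, 43576150 to 43615660), stood at 337, 299 and 359 normalized counts in Scramble and at 680.0, 708 and 677 in shOGT. The depleted libraries were close together and all above the controls, a 2.08-fold higher mean (1.05 ± 0.11, adjusted p = 3.76e-07, limma). The log2 fold change was 0.98 without Scramble library 2. POLN, a little-expressed polymerase of the A family, was at 13.3, 12.6 and 8.28 in Scramble and at 34.7, 50.3 and 37.6 in shOGT (3.59-fold), with 10.8% of its 75-base stretches shared with other genes. POLM, which fills gaps during end joining, went from 206, 201 and 138 to 71.6, 109 and 75.1. It was the least certain of the members, with a log2 fold change of -1.08 ± 0.22 that was -0.98 without Scramble library 1, -0.97 without shOGT library 4, and -0.37 after rescaling (adjusted p = 0.122, limma).

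RAD18 and CHEK2, the 2 listed genes of 11 in the damage signalling group, moved in opposite directions. RAD18, the ubiquitin ligase that marks PCNA at stalled forks and so recruits POLH (chromosome 3, 8775402 to 8963773), was at 271, 381 and 369.9 normalized counts in Scramble and at 587, 711 and 783 in shOGT. All depleted libraries were above all controls, with a 2.04-fold higher mean (1.03 ± 0.15, adjusted p = 1.11e-05, limma), but the log2 fold change was 0.87 without Scramble library 1 and 0.94 without shOGT library 6. CHEK2, a kinase activated by ATM after double-strand breaks (chromosome 22, 28687743 to 28742422), went from 368, 411 and 410.4 to 143, 106 and 126 (31.6% retained, -1.66 ± 0.15, adjusted p = 7.7e-08, limma). ATM, ATR and CHEK1 were not in the table.

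The RAD18 and POLH transcripts thus rose while that of PCNA, the protein that links them, fell. Per kilobase within each library, POLH relative to PCNA was 0.0656, 0.0501 and 0.0640 in Scramble and 0.460, 0.480 and 0.450 in shOGT. RAD18 relative to PCNA was 0.0267, 0.0323 and 0.0334 in Scramble and 0.202, 0.244 and 0.264 in shOGT. Group means of these ratios differed 7.74-fold and 7.68-fold. Outside the name rule, 2 of the subunits of polymerase zeta, which extends from damaged bases, moved in opposite directions. REV3L, its catalytic subunit, was higher, at 437, 571 and 537 in Scramble and 899.9, 1329 and 1342 in shOGT (1.19). MAD2L2, an accessory subunit, fell by 1.69 on the log2 scale. This pair was also chosen after its values were seen.

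Expressed per kilobase of exon, which allows levels to be compared between genes, the members covered a wide range in Scramble. The highest mean levels there were those of XRCC6 at 1922 normalized counts per kilobase, PCNA at 1575, TOP2A at 1032 and RRM1 at 662. In shOGT the highest were XRCC6 at 951, LIG4 at 573 and PCNA at 419, so that LIG4, at 148 in Scramble, moved above PCNA in shOGT. The lowest in Scramble were POLN at 1.48 and RPA4 at 6.57. The other increases began from higher levels, with POLH going from 93.7 to 194, RAD18 from 48.8 to 99.4 and ERCC4 from 25.9 to 54.0, although RAD18 and ERCC4 were themselves in the lower part of the members' range in Scramble. The spread within a group was close to that of protein-coding genes above a low limit of counts, a set that includes the members and was not matched for level. The members' median coefficient of variation was 8.33% in Scramble and 11.1% in shOGT, against 9.31% and 12.6% over the protein-coding genes averaging at least 10 normalized counts, and 12.8% and 15.7% over all genes tested.

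**Figure D5:**
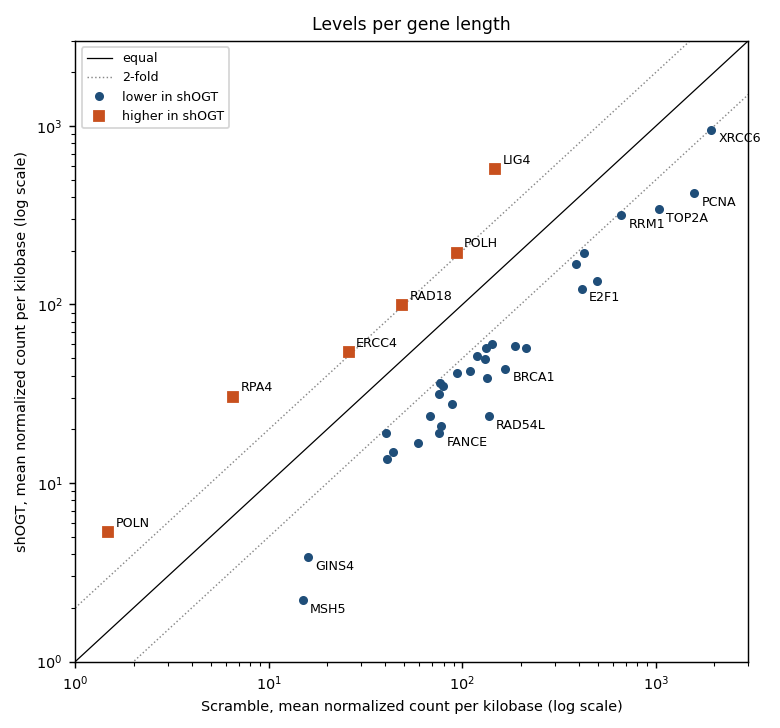
Mean normalized count per kilobase of exon in Scramble (horizontal, log axis) and in shOGT (vertical, log axis) for 38 members, with lines of equality and of a 2-fold difference. The 32 lower members drawn lie below the line of equality and the 6 higher members above it, with LIG4 the highest of those above.

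Single libraries shaped some of the members more than others. Library 1 was the Scramble library farthest from its group mean for 24 of the 40 members, and library 4 the shOGT library farthest for 19 of 40. When each library was left out in turn, between 38 and 40 members stayed past 2-fold and adjusted p under 0.05 (limma). Over all genes 5029 to 5512 did so, which follows from the restriction of the table, so the count says little about the members. The median log2 fold change of the members lay between -1.43 and -1.31. The 5 members that lost the 2-fold limit in at least 1 such fit were RAD18, POLM, XRCC6, POLH and RRM1, whose values are given with each of them above. No member changed direction, which could hardly happen for genes listed past 2-fold, so this says little about the members.

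Among genes of the same processes that the name rule did not catch, those in the table were mostly lower as well. Of 40 further replication genes listed from general knowledge, 13 were in the table, and all 13 fell, with a median log2 fold change of -1.37. The largest changes were those of ASF1B, a histone chaperone at the fork (978, 934 and 949 in Scramble, 111, 93.2 and 59.2 in shOGT), CHAF1B, a subunit of the chromatin assembly factor (-2.40), and TICRR, which helps to load CDC45 at origins (-2.39). All shOGT libraries of ASF1B were far below all controls. Of 82 further repair genes, 27 were in the table, of which 23 fell and 4 rose, with a median of -1.43. MUTYH, the glycosylase that removes adenine opposite oxidised guanine, went from 289, 275 and 244 to 55.8, 34.3 and 34.1 (-2.71).

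The 4 further repair genes that rose were NHEJ1, HLTF, REV3L and TDP2. NHEJ1, the XLF factor that works with LIG4 in end joining, was at 0.887, 2.70 and 3.68 in Scramble and at 28.4, 22.5 and 6.83 in shOGT normalized counts, which in Scramble are a few reads per library. SMUG1, a uracil glycosylase, fell from 643, 588 and 634 to 108, 112 and 129.8. The share of fallen genes in the further repair list (85.2%) was close to that of the members (85.0%), and both lists were drawn from a table in which 57.4% of the protein-coding genes tested had a log2 fold change below 0. The members and the further lists were chosen with earlier results of these data known, so that neither is separate evidence for the direction of the other.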

How the data were processed

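Total RNA of 6 HT-29 libraries (Scramble, n = 3; shOGT, n = 3) was sequenced on the Illumina platform. The authors deposited 1 signal table (normalized counts, a row per gene and a column per library), which also holds their own log2 fold changes and p-values (raw and adjusted), gene positions and gene lengths. The deposited log2 fold changes and p-values were read only to see which genes had been kept and are not printed. The submitters' processing notes name cutadapt 1.9, HISAT2 2.0.4, UMI-tools, StringTie 1.3.4d, DESeq2 and edgeR, without their roles, and the mouse build mm8, although the gene identifiers are human and the positions of all 5681 genes match GENCODE release 29 (GRCh38). The labels describe oligo(dT) capture, dUTP-marked second strands and adapters with molecular identifiers, whereas the methods of the study name a SureSelect strand-specific kit. Whether reads were counted by strand is not given in the sources used here.

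The values of each library were whole multiples of 1 step for 100% of genes (tolerance 0.02), so whole reads were recovered by multiplying by the size factor (1.09 to 1.13 in Scramble, 0.879 to 0.950 in shOGT). limma 3.58.1 (R 4.3.3) with its trend method was fitted to log2(value + 1), with a term for group alone. The 5671 genes tested reached a value of 1 in 3 or more libraries. Calls needed an absolute log2 fold change over 1 and a Benjamini-Hochberg adjusted p under 0.05 over all genes tested. Because the table was itself selected on this contrast, these p-values follow that selection. Replicate pairs differed by more than counting noise (chi-square per degree of freedom 2.48 to 9.82), so no library was a copy of another. Alternatives were edgeR 4.0.16 (quasi-likelihood) and DESeq2 1.42.0 on the recovered reads, rescaling by the median of ratios, a pseudocount of 0.1, no filter, a mean of at least 10, and each library left out. The number of columns of per-sample values left unused was 0.

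The members and gene lists were chosen with earlier results of these data known. Values in every library were given for the 12 members with the highest and the 12 with the lowest log2 fold change, the 5 with the highest mean and the extreme member of each role, and other members by range or name. Some genes that the rules cover are counted with the members but not reported by name here. Genes of the further lists were named for their 3 largest changes. E2F1, E2F2, ORC6, LIG1, BRIP1, XRCC1, KRT20, KRT19, CDH17, LGALS4, VIL1, PECAM1, HLTF, TDP2, REV3L, MAD2L2, the ratios within libraries and the printed promoters were chosen after their values were seen. Promoters were RefSeq sequences (GRCh38.p14), and shared exon bases and 75-base stretches came from GENCODE release 29. No protein sequences were used here, and unlisted genes were not analysed here.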

Additional observations from a re-analysis of the deposited data

How the results depend on the processing

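All 40 members kept their direction and their call under edgeR, DESeq2, no filter, a mean of at least 10 and a pseudocount of 0.1. Over all genes 5666 were called under edgeR, 5668 under DESeq2 and 5646 without a filter. With a pseudocount of 0.1 it was 5647, and with a mean of at least 10 it was 4782. Such counts follow from the restriction of the table, so they say little about the members. Rescaling by the median ratio across the listed genes, all of which differed between the groups, left 19 members called. Of these, 13 were lower, and the median log2 fold change of the members moved to -0.66. The same rescaling changed the genes called lower to 1090 and the median of all genes to 1.76. With each library left out in turn, 38 to 40 members and 5029 to 5512 of all genes were called. The median of all genes reversed to -1.05 with a mean of at least 10 and lay between -0.96 and 1.04 when single libraries were left out. It was negative without each shOGT library in turn, at -0.96, -0.93 and -0.90. The table holds almost no gene between a 2-fold decrease and a 2-fold increase, so its median sits on either side of that gap. No paired analysis was possible because the library numbers 1 to 6 are not shared between the groups. Reads on genes outside the table and the total depth are unknown, and the limits of the low members POLN and RPA4 are those of their few reads.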
